A study of Homo sapiens with 5 samples.

Results

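The sites described here are the SF-1-binding sites that 2 antibodies found at basal SF-1 dosage. They were chosen by the measured positions of the peaks, as those peaks of the basal Millipore list that overlap a peak of the basal Perseus list by at least 1 bp. The rule gave 510 of 4393 basal Millipore peaks (11.6%), and these met 506 of 6616 basal Perseus peaks (7.65%). SF-1 occupancy had been mapped by chromatin immunoprecipitation and sequencing in H295R/TR SF-1 cells. This subclone derives from H295R, an established line of a human adrenocortical tumor, and in it doxycycline switches on an additional SF-1 transgene. The basal groups were cultured without doxycycline and the overexpressed groups with it for 3 days. All groups therefore carry the transgene, and they come from 1 tumor line. The antibodies are named as in the sample labels, Millipore and Perseus, while the methods give Millipore and R&D Systems as suppliers. Each of the 4 peak lists combines 3 libraries according to its label, and the input 2, so no replicate error exists for any value, and p-values were not computed. The depth behind each list is unknown, and the intervals given are 95% intervals that cover counting error over peaks only. Neighbouring peaks are not fully independent.

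SF-1, the product of NR5A1, belongs to the nuclear receptors and contacts DNA as a monomer. Its recognition sequence is a nuclear receptor half-site preceded by a short extension that the DNA-binding domain also contacts. In the adrenal cortex and gonads the factor drives genes of steroid hormone synthesis, and its dosage is tightly linked to adrenocortical growth.

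The sequence searched was the SF-1 consensus, which covers the 8 words TCAAGGTCA, CCAAGGTCA, TCAAGGCCA, CCAAGGCCA, TCAAGGTCG, CCAAGGTCG, TCAAGGCCG and CCAAGGCCG on either strand. The following stretches are those common to the basal Millipore and basal Perseus peaks. The first 4 lie near genes of adrenal function, and the other 4 are the best-ranked that hold the consensus among the sites found again in 1 overexpressed list or in none. All are forward-strand sequence of the hg19 build, with the consensus in capitals, and a consensus on the reverse strand appears as its reverse complement, which begins with TG or CG.
CYP11A1 site, chr15:74619151-74619449, intron of CCDC33: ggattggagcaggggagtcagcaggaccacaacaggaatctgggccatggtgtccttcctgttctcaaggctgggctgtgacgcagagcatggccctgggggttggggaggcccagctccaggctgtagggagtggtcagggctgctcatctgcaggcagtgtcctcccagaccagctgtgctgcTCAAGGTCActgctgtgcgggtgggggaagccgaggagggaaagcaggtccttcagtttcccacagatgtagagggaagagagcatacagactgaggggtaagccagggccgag
POR site, chr7:75614901-75615099, coding exon of POR: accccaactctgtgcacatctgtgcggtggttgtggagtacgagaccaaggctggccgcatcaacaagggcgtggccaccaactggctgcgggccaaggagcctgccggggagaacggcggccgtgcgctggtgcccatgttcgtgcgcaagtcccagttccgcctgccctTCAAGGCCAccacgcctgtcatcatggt
NR5A1 site, chr9:127191601-127191699, intergenic: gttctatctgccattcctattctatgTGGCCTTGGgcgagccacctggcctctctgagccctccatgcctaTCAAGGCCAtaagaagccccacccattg
KCNJ5 site, chr11:128795101-128795199, intergenic: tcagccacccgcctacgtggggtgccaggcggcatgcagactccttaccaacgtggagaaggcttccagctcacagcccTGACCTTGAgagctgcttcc
SLC7A9 site, chr19:33322551-33322799, intron of SLC7A9: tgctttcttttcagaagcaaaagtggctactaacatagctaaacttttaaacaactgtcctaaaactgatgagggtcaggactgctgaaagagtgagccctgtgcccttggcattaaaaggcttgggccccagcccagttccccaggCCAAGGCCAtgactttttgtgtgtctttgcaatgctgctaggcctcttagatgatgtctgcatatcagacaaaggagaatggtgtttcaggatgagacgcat
QSOX2 site, chr9:139147751-139147999, intergenic: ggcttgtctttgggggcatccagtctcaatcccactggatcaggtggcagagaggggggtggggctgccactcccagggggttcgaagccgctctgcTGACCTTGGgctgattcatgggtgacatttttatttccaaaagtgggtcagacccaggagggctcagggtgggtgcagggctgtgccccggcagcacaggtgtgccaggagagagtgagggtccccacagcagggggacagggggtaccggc
FOXN3 site, chr14:89653201-89653449, intron of FOXN3: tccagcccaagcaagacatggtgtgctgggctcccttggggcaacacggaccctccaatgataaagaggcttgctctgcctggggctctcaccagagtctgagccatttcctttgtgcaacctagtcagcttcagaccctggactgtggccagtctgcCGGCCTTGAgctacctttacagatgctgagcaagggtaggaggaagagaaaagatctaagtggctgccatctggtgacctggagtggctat
COX17 site, chr3:119394901-119395199, intron of COX17: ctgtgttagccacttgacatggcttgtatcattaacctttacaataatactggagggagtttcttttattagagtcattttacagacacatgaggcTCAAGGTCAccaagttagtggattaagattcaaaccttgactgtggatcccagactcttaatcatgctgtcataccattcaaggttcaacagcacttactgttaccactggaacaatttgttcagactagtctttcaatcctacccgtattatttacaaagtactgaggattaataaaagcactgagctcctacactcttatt

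The overlap that chose the sites had a median of 149 bp and ran from 49 to 549 bp. It was under 50 bp in 51 sites, 50 to 99 bp in 159 and 100 bp or more in 300. Just outside the rule, 8 other basal Millipore peaks had a basal Perseus peak within 50 bp, and 25 had one 51 to 200 bp away. The remaining 3850 had none within 200 bp, so few peaks missed the rule narrowly. The centres of the paired peaks lay within 50 bp of each other in 357 of the 510 sites, and 45 pairs had the same ends in both lists. Peak starts fall on a grid of 50 bp, which sets the precision of these positions. Member peaks had a median width of 199 bp in the Millipore list, against 149 bp for the other basal Millipore peaks.

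Each list orders its peaks by a rank that begins at 1. The basal lists hold 4393 Millipore and 6616 Perseus peaks, and the overexpressed lists 11910 and 7453. A rank is therefore a place within its own list, and equal ranks in different lists do not mean equal standing. By Millipore rank the sites ran from 6 to 4378 with a median of 944.5, and by Perseus rank from 5 to 6610 with a median of 2371. The best Millipore quartile held 274 sites and the last quartile 55, while the best Perseus quartile held 175 and the last 95. Of the 100 best Millipore ranks, 51 belonged to these sites, against 18 of the 100 best Perseus ranks. The 2 ranks of a site were only weakly related, with Spearman's rho of 0.16 over the 510 sites, a description over lists that share 1 input control. A site near the top of one list could therefore stand anywhere in the other.

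**Figure D1:**
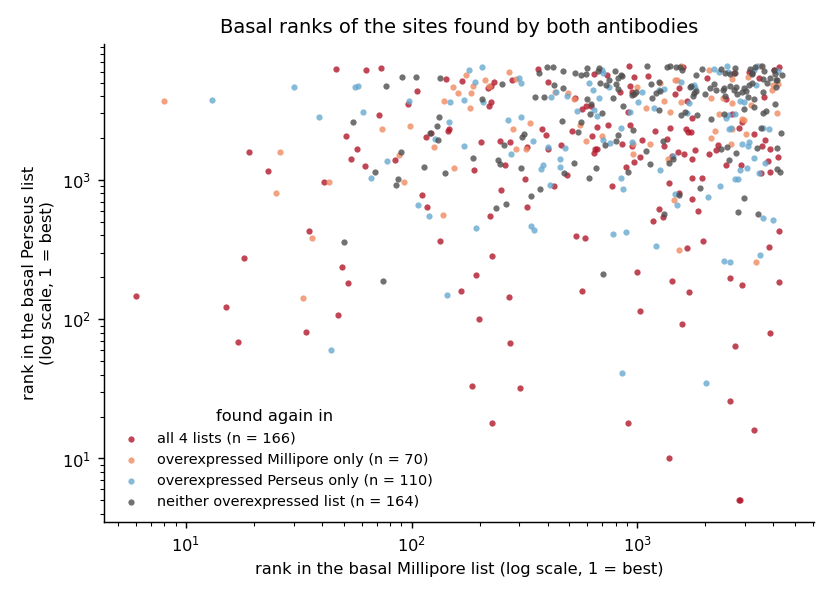
Rank of each of the 510 sites in the basal Millipore list (x axis, log scale) and in the basal Perseus list (y axis, log scale), where 1 is best, coloured by the overexpressed lists in which the site was found again. The 166 sites of all 4 lists reach the best ranks of both axes, and the 164 sites found in neither overexpressed list have a median Perseus rank of 4006.5.

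The site with the best pair of basal ranks ranked 44th by Millipore and 60th by Perseus. It lies at chr14:107161751-107161949, in intergenic sequence, 1168930 bp from the nearest start of a gene annotated as protein-coding. Genes and gene segments of other annotated types were not counted for this distance. The site holds no consensus, and was found again at rank 57 of the overexpressed Perseus list but not with Millipore. A site on chromosome 5, at chr5:49501-50049, ranked 34 and 81 at basal dosage and 106 and 238 in the overexpressed Millipore and Perseus lists. It too lacks the consensus, and its best word, TCAGGGTCA, differs by 1 base. A site 106 bp before the start of RBM18, inside an intron of MRRF, ranked 47 and 108, then 664 and 594. The site 663 bp after the start of GFI1B, which encodes a zinc finger repressor of blood cell development, ranked 15 and 122, then 202 and 480, and holds CCAAGGCCG. It lies in an untranslated exon, within the annotated bounds of both GFI1B and TSC1, so it cannot be assigned to GFI1B alone. A site in an intron of CPT1A, the carnitine palmitoyltransferase that admits fatty acids to mitochondria, ranked 52 and 181, then 494 and 226, and its best word was TCAAGGGCA. A site in an intron of LINC00689 ranked 17 and 69, then 31 and 249. Another, in an intron of PALM, ranked 6 and 147, then 24 and 371. Both of these hold TCAAGGTCA. Among these best-ranked sites some held the consensus and others did not. Sites within 1 Mb of a long run of unknown bases in the assembly were left out when the best of all 4 lists were chosen. One of those left out, at chr20:26188751-26189049, ranked 227 and 18, then 58 and 15, and holds no consensus.

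The first question was whether the sites that both antibodies found were found again when SF-1 was overexpressed. The overexpressed lists were not used to choose the sites. They differ in length, with 11910 Millipore and 7453 Perseus peaks, so shares are compared between sets of peaks within the same list. In the overexpressed Millipore list, 236 of 510 sites were found again (46.3%, 42.0 to 50.6), against 308 of 3883 other basal Millipore peaks (7.93%, 7.12 to 8.82). Over all basal Millipore peaks the share was 12.4%. The difference of 38.3 percentage points (34.0 to 42.8) is between peaks of 1 antibody. In the overexpressed Perseus list, 276 sites were found again (54.1%, 49.8 to 58.4), against 170 other basal Millipore peaks (4.38%), with 10.2% over all. Part of this difference of 49.7 points (45.3 to 54.1) follows from the rule, which already required a peak with the Perseus antibody. This limit holds for every comparison below of the sites with other basal Millipore peaks that uses the overexpressed Perseus list. The same question asked within the Perseus lists gave 272 of 506 member peaks (53.8%, 49.4 to 58.1) against 1677 of 6110 other basal Perseus peaks (27.4%, 26.3 to 28.6), with 29.5% over all. That difference was 26.3 points (21.8 to 30.7). With either antibody, then, a basal peak that the other antibody had also found was found again more often than one it had not.

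Ranks differed between the sites and the other peaks, so the comparison was repeated within quartiles of the basal Millipore rank. In the overexpressed Millipore list the sites were found again in 49.6, 50, 36.1 and 38.2% from the best to the last quartile, and the other peaks in 15.7, 7.10, 5.71 and 4.79%. Pooled over the quartiles the difference was 35.1 points (30.6 to 39.7). In the overexpressed Perseus list the sites gave 58.4, 52.0, 48.2 and 45.5%, and the others 7.89, 4.20, 3.45 and 2.68%. Within quartiles of the Perseus rank, 70.6, 58.1, 38.2 and 36.1% of member Perseus peaks were found again in the overexpressed Perseus list, and 50.4, 26.2, 19.7 and 14.5% of the others. In all quartiles of these 3 comparisons the interval of the difference lay above 0.

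**Figure D2:**
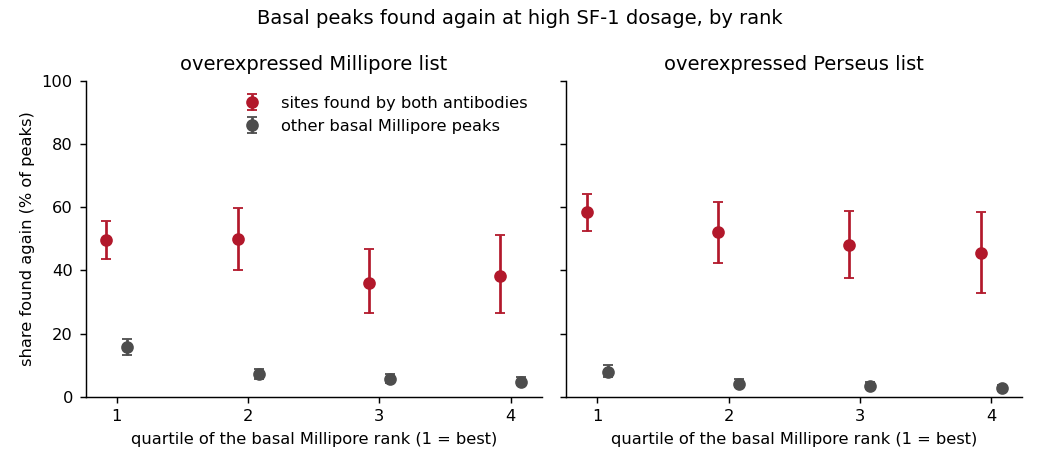
Share of peaks found again (y axis, % of peaks) by quartile of the basal Millipore rank (x axis, 1 is best), in the overexpressed Millipore list (left) and the overexpressed Perseus list (right). Points are shares and bars 95% Wilson intervals. The sites found by both antibodies lie between 36.1 and 58.4%, above the other basal Millipore peaks at 2.68 to 15.7%. Part of the difference on the right follows from the rule that chose the sites.

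By their presence in the overexpressed lists the sites fell into 4 classes. In all 4 lists stood 166 sites (32.5%, 28.6 to 36.7), against a share of 5.35% of all basal Millipore peaks that were found in both overexpressed lists. The overexpressed Millipore list alone held 70, and the overexpressed Perseus list alone held 110. Neither list held the remaining 164 sites (32.2%, 28.2 to 36.3), where the share over all basal Millipore peaks was 82.8%. Both contrasts with all basal Millipore peaks use the overexpressed Perseus list, so part of each follows from the rule. Of the 236 sites found again with Millipore, 70.3% (64.2 to 75.8) were also found again with Perseus, against 40.1% (34.5 to 46.0) of the 274 that Millipore did not find again, a difference of 30.2 points (21.7 to 38.0). The classes also differed in their basal ranks. The median Perseus rank was 1607 in sites of all 4 lists, 2371 in those found again with Perseus only, 3064.5 in those with Millipore only and 4006.5 in those found in neither. The corresponding median Millipore ranks were 849.5, 851.5, 956.5 and 1242.5. Sites found in neither list thus stood lower in the basal lists, most clearly by Perseus rank.

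Among the sites found again, more Millipore peaks were wider than narrower at overexpressed dosage, and more Perseus peaks were narrower than wider. The Millipore peak was wider at overexpressed dosage in 144 of 236 sites, as wide in 43 and narrower in 49, and the mean width went from 223 ± 103 to 317 ± 183 bp (SD over sites). The Perseus peak was wider in 85 of 276 sites, as wide in 63 and narrower in 128, with means of 275 ± 200 and 260 ± 179 bp. In the Millipore lists, all overexpressed peaks averaged 183 bp and the basal peaks outside the sites 149 bp. In the Perseus lists these means were 180 and 173 bp. A greater width with Millipore at overexpressed dosage is therefore not particular to the sites. Widths of the other basal peaks that were found again are not given here. Width moves with read depth, which is unknown here, so an effect of dosage on width cannot be told apart from one of depth.

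The classes are best read through single sites, whose ranks are places in lists of unequal length. The SLC7A9 site, in an intron of a gene for a cystine transporter subunit, ranked 33 and 142 in the basal Millipore and Perseus lists and 2010 in the overexpressed Millipore list, and it was not found in the overexpressed Perseus list. A site 20423 bp before the start of MICAL3 ranked 36 and 385, then 197 with Millipore only. Both hold 1 copy of the consensus. Of those found again with Perseus only, the QSOX2 site, 10167 bp before the start of that sulfhydryl oxidase gene, ranked 143 and 149 and then 146. A site in an intron of LINC02613 ranked 349 and 435 and then 2408, without a consensus. Among the sites found in neither overexpressed list, the FOXN3 site ranked 75 and 187, the COX17 site 50 and 361, and an intergenic site 61567 bp after the start of FOXB1 237 and 626. These last 3 also hold 1 copy each, so a good basal rank with both antibodies and a consensus did not ensure that a site was found again.

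The second question was whether the sites carry the sequence that SF-1 recognises, which the rule did not use. In a window of 200 bp around the Millipore peak centre, 310 of 510 sites held the SF-1 consensus (60.8%, 56.5 to 64.9), against 510 of 3883 other basal Millipore peaks (13.1%, 12.1 to 14.2) and 18.7% over all. The difference was 47.7 points (43.2 to 51.9). Windows of the same width 5 kb to each side of the sites held it in 10 of 1020 (0.980%). Around the Perseus centres the shares were 56.5% of 506 member peaks and 22.6% of the other 6110. Rank changed little: from the best to the last Millipore quartile 62, 64.3, 54.2 and 58.2% of the sites held the consensus, and 16.4, 13.6, 11.8 and 11.4% of the other peaks.

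Around the centre of the overlap, 306 sites held the consensus (60%, 55.7 to 64.2). A single copy was present in 262, a pair in 40 and 3 or more copies in 4. The distance from the overlap centre to the nearest copy had a median of 33 bp, against 34 bp from the Millipore centre and 42 bp from the Perseus centre. These sites were taken for a copy in the 200 bp window around the overlap centre. That limits the first distance, with a maximum of 95 bp, but not the others, with maxima of 251 and 224 bp. The medians therefore do not show which centre lies closest to the consensus. The nearest copy fell within 25 bp of the overlap centre in 126 sites and within 50 bp in 206, and in 243 it lay wholly inside the overlap. Of the 40 pairs, 27 stood on the same strand and 13 on opposite strands, with a median distance of 38 bp. The NR5A1 site above shows a pair on opposite strands within 99 bp.

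**Figure D3:**
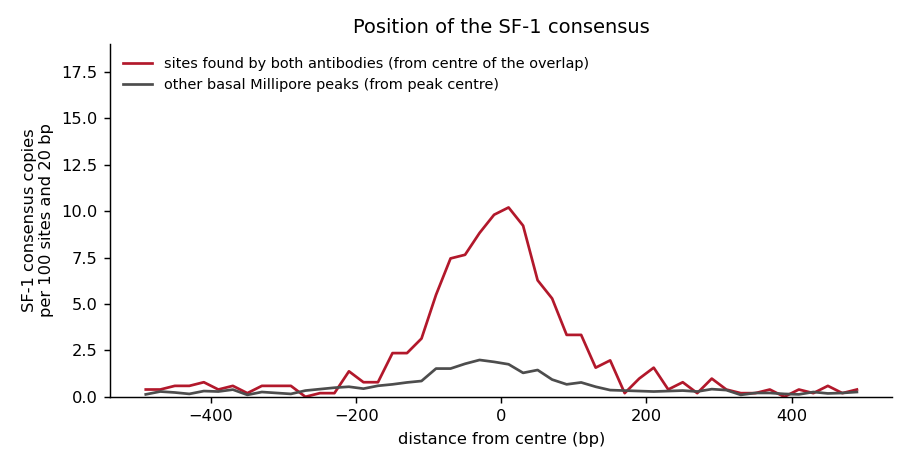
Copies of the SF-1 consensus per 100 sites in bins of 20 bp (y axis) against the distance in bp from the centre of the overlap for the sites found by both antibodies, or from the peak centre for the other basal Millipore peaks (x axis). The sites peak at 10.2 copies per 100 in the bin centred 10 bp from the middle, where the other peaks have 1.75.

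The words occurred in unequal numbers, given here without counts in background windows, so a preference of the sites was not tested. TCAAGGTCA made up 134 copies, CCAAGGTCA 99, CCAAGGCCA 53 and TCAAGGCCA 48, while the 4 words that end in G together were rarer, with 9 copies of CCAAGGCCG, 9 of TCAAGGCCG, 8 of TCAAGGTCG and 6 of CCAAGGTCG. The base before CAAGGTCA was C or T in 237 of 245 copies in the sites (96.7%, 93.7 to 98.3). It was C or T in 341 of 391 copies in the other basal Millipore peaks (87.2%, 83.5 to 90.2) and in 66 of 119 copies in the windows 5 kb away (55.5%, 46.5 to 64.1). Of the other 204 sites, 127 (62.3%, 55.4 to 68.6) held a word 1 mismatch away, against 254 of 1010 windows without a consensus (25.1%, 22.6 to 27.9). The best word was 2 mismatches away in 69 sites and 3 away in 8.

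The share of sites with the consensus ranged from 57.3 to 61.4% over the classes. It was present in 61.4% of the sites of all 4 lists, in 58.6% of those found again with Millipore only, in 57.3% of those with Perseus only and in 61.0% of those found in neither. Sites found in at least 1 overexpressed list had it in 59.5% and sites found in neither in 61.0%, a difference of -1.44 points with an interval of -10.3 to 7.71 that takes in 0. Its sign turned under 2 alternatives, with values of 0.0276 without peaks near long assembly gaps and 0.229 over whole peaks. Conversely, 46.7% of sites with and 45.6% of sites without the consensus were found again with Millipore, and 53.9 and 54.4% with Perseus. A difference of either sign within -10.3 to 7.71 points between these 2 sets of sites remains possible.

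Other sequences were searched in the same windows. The half-site AGGTCA, which the SF-1 consensus partly contains, occurred in 52.2% of the sites, in 20.2% of the other basal Millipore peaks, in 23.9% over all and in 16.2% of the windows 5 kb from the sites. The GC box GGGCGG, recognised by Sp factors, was found in 65 sites (12.7%, against 3.01% of the others, 4.14% over all and 5.29% of those windows). The ETS word CCGGAA was found in 28 (5.49%, against 2.14%, 2.53% over all and 1.67%). The sequence bound by CTCF, an insulator protein, stood in 5 sites (0.980%, against 0.0773% and 0.182% over all), and the cyclic AMP response element TGACGTCA in 4 (0.784%, against 0.0773% and 0.159% over all). In the other direction, AGATAA of GATA factors was held by 9.02% of the sites and 12.8% of the others (12.3% over all), a difference of -3.75 points (-6.20 to -0.77), and CCAAT by 22 and 27.8% (27.1% over all). The windows 5 kb away stood in the same order, with AGATAA in 10.6% near the sites and 14.7% near the other peaks, and CCAAT in 24.1 and 26.7%. The AP-1 word TGANTCA occurred in 7.45 and 6.90% (6.97% over all), with a difference of 0.549 points (-1.60 to 3.27), and in 5.20 and 6.35% of the windows 5 kb away. The consensus of NRSF/REST, the repressor of neuronal genes, was matched in 4 sites (0.784%, 0.305 to 2.00) and in 49 other peaks (1.26%, 0.956 to 1.66), with 1.21% over all and a difference of -0.478 points (-1.10 to 0.775). The windows 5 kb away held it less often, in 1 of 1020 near the sites (0.0980%, 0.0173 to 0.553) and in 4 of 7766 near the other peaks (0.0515%, 0.0200 to 0.132).

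Base composition moved with several of these values. GC content in the 200 bp window averaged 52.6 ± 9.81% in the sites (SD, n = 510) and 45.5 ± 8.42% in the other basal Millipore peaks (n = 3883), a difference of 7.02 points (6.13 to 7.91), while the windows 5 kb from the sites averaged 45.7%. The other basal Perseus peaks averaged 52.2 ± 15.1% (n = 6110), close to the sites, so the higher GC content holds only against the other Millipore peaks. It also differed between the classes, at 57.8% in sites of all 4 lists, 53.5% in those found again with Millipore only, 51.3% in those with Perseus only and 47.7% in those found in neither. Sites of all 4 lists exceeded those found in neither by 10.1 points (8.19 to 12.1).

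Split at the GC quartiles of all basal Millipore peaks, which end at 39.5, 45.5 and 52.5%, the sites numbered 48, 90, 122 and 250. From the lowest to the highest quartile 10.4, 24.4, 45.9 and 61.2% were found again with Millipore, and 29.2, 44.4, 43.4 and 67.6% with Perseus. The highest quartile exceeded the lowest by 50.8 points (37.5 to 59.1) with Millipore and by 38.4 points (23.2 to 50.7) with Perseus. The share found in neither overexpressed list fell across the quartiles from 66.7 to 47.8, 36.1 and 18.0%. The other basal Millipore peaks showed the same order at a lower level, with 1.03, 4.50, 9.38 and 20% found again with Millipore. Pooled over the GC quartiles, the sites still exceeded the others by 32.5 points (28.0 to 36.9) with Millipore and 46.3 points (41.8 to 50.8) with Perseus. The consensus did not follow this order in the sites, where it stood at 58.3, 55.6, 64.8 and 61.2%, although in the other peaks it went from 6.11 to 13.2, 15.2 and 19.9%. Whether GC content itself has a part in these values was not tested.

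**Figure D4:**
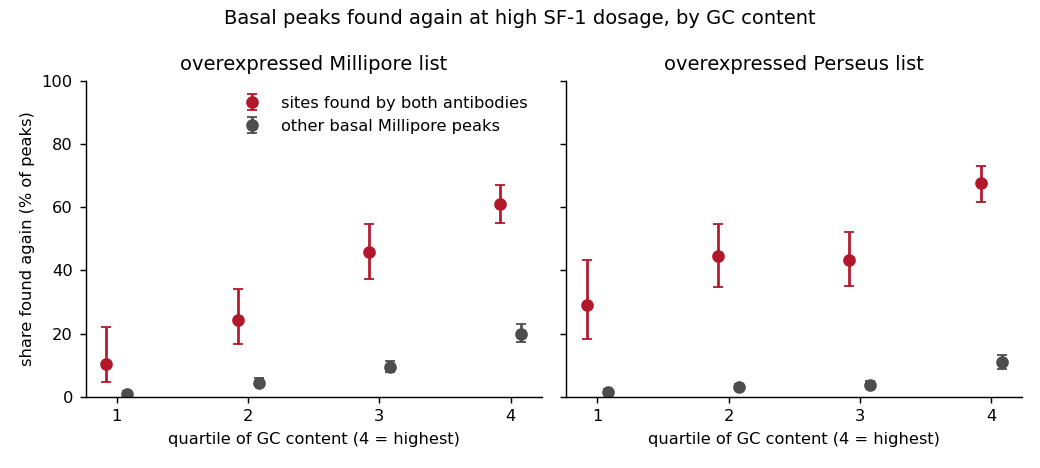
Share of basal Millipore peaks found again (y axis, % of peaks) by quartile of the GC content of the 200 bp window (x axis, 4 is highest), in the overexpressed Millipore list (left) and the overexpressed Perseus list (right), with 95% Wilson intervals. The sites found by both antibodies go from 10.4 to 61.2% on the left and from 29.2 to 67.6% on the right, above the other basal Millipore peaks in each quartile. Part of the difference on the right follows from the rule that chose the sites.

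The third question was where the sites lie. By the Millipore peak centre, introns of protein-coding genes held 251 sites (49.2%), against 43.1% of the other basal Millipore peaks and 43.8% over all, a difference of 6.08 points (1.49 to 10.7). Intergenic sequence held 130 (25.5%), against 35.2% and 34% over all, a difference of -9.66 points (-13.6 to -5.44). Untranslated exons held 34 (6.67%), against 2.78% and 3.23% over all, a difference of 3.89 points (1.94 to 6.43). Coding exons held 19 (3.73%), against 2.42% and 2.57% over all, with a difference of 1.30 points (-0.13 to 3.37). Introns of other genes held 51 (10%, against 13.7% and 13.2% over all), exons of other genes 14 (2.75%, against 1.49% and 1.64% over all) and other exons of protein-coding genes 11 (2.16%, against 1.34% and 1.43% over all). Within 1 kb of the transcription start site (TSS) of a protein-coding gene lay 50 sites (9.80%, 7.52 to 12.7), against 134 other basal Millipore peaks (3.45%) and 4.19% over all, a difference of 6.35 points (3.98 to 9.29). Pooled over GC quartiles it was 3.58 points (0.959 to 6.19). Compared with the other basal Perseus peaks, of which 27.8% lay within 1 kb of a TSS, the 506 member Perseus peaks were at 9.88%, a difference of -17.9 points (-20.5 to -14.8). Within 1 kb of a TSS the sites thus stood between the remaining peaks of both antibodies. At 1 to 10 kb lay 19.8% of the sites, against 11.4% of the other Millipore and 13.9% of the other Perseus peaks. At 10 to 100 kb lay 47.1%, against 43.3 and 33.1%. Over 100 kb away lay 23.3%, against 41.8% of the other Millipore and 25.2% of the other Perseus peaks.

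**Figure D5:**
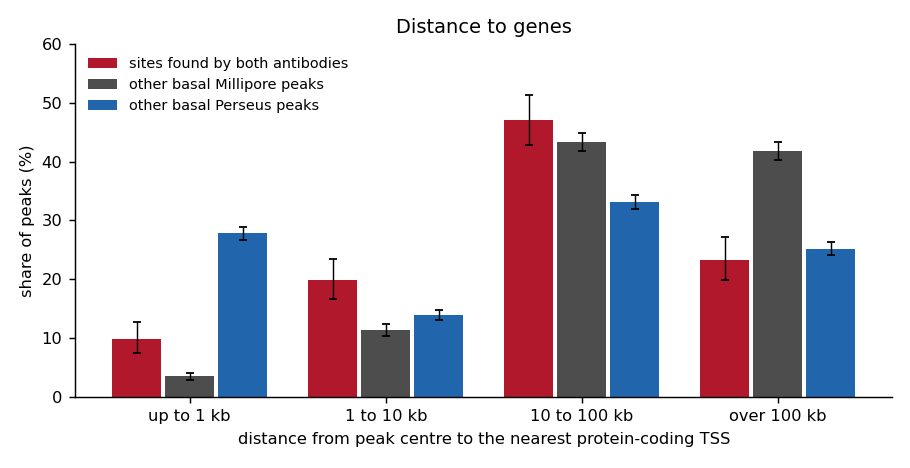
Share of peaks (y axis, %) by distance from the peak centre to the nearest protein-coding TSS (x axis), with 95% Wilson intervals. Up to 1 kb, the sites found by both antibodies stand at 9.80%, between the other basal Millipore peaks at 3.45% and the other basal Perseus peaks at 27.8%.

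Of the 50 sites within 1 kb of a TSS, 26 were in all 4 lists, 11 were found again with Perseus only, 5 with Millipore only and 8 in neither. They were found again more often than the 460 sites farther away, by 17.4 points with Millipore (62 against 44.6%, interval 2.85 to 30.4) and by 22 points with Perseus (74.0 against 52.0%, interval 7.75 to 33.2). Their GC content was also higher, with a mean of 60.2 against 51.7%. Within the highest GC quartile the difference was 3.71 points (-12.7 to 18.1) with Millipore and 10.3 points (-5.61 to 22.6) with Perseus, both with intervals that take in 0. The consensus was held by 56.0% of the sites near a TSS and 60.4% of the others, a difference of -4.43 points (-18.8 to 9.18). Next to RBM18 and GFI1B, described above, the best-ranked of these sites included one 276 bp after the start of SNX16, with basal ranks of 185 and 33, one 614 bp after the start of the histone H4 gene H4C9, with basal ranks of 228 and 286, and one 133 bp after the start of MRPL48, a mitochondrial ribosomal protein gene, with ranks of 117 and 637. These 3 were chosen after their values were seen, and all 3 were found in all 4 lists.

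Genes of adrenal function were then examined by lists of known roles. A site lay within 100 kb of the TSS of 1245 of 20163 protein-coding genes (6.17%), and any basal Millipore peak did for 30.7%. Of the 102 genes in 6 lists, 13 had a site (12.7%) and 39.2% had any basal Millipore peak. A site is near a gene here by distance only, and other genes often lie closer.

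In steroid synthesis, 3 of 19 genes had a site. CYP11A1 encodes the side-chain cleavage enzyme that starts steroid synthesis, and its site lies 40712 bp downstream of the TSS, in an intron of CCDC33. It ranked 41 and 973 in the basal Millipore and Perseus lists and 1283 and 3035 in the overexpressed ones, so it was in all 4 lists, better placed with Millipore. POR encodes the reductase that passes electrons to microsomal P450 enzymes, among them CYP17A1 and CYP21A2. The site lies in one of its coding exons, ranked 2916 and 177 at basal and 221 and 102 at overexpressed dosage, and holds TCAAGGCCA. It was low in the basal Millipore list and near the top of the other 3. CYP17A1 encodes the 17-hydroxylase and lyase of cortisol and androgen synthesis. Its site lies 26371 bp before the TSS, holds TCAAGGTCA and ranked 3232 and 5002, and it was found in neither overexpressed list.

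In cholesterol supply, 2 of 16 genes had a site. Among the genes of ACTH, angiotensin and cyclic AMP signalling, 2 of 19 had a site. PRKAR1A encodes a regulatory subunit of protein kinase A, and its site ranked 3118 and 4791. KCNJ5 encodes a potassium channel of aldosterone-producing cells, and its site ranked 565 and 5699 and holds TCAAGGTCA. Both sites were found in neither overexpressed list.

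Among adrenal and gonadal transcription factors, 3 of 20 genes had a site. The site of NR5A1, the gene of SF-1 itself, lies 78074 bp after its TSS and 13902 bp before the start of PSMB7. It ranked 1800 and 4549, then 5054 with Perseus only. NR0B2 encodes SHP, a nuclear receptor without a DNA-binding domain that represses other receptors. Its site lies 459 bp before the TSS, in an intron of NUDC, and of the 102 listed genes NR0B2 alone had a site within 10 kb of its TSS, a distance at which 1.01% of protein-coding genes had a site. It ranked 908 and 3060 at basal dosage, 23 in the overexpressed Millipore list and 7380, close to the end, in the overexpressed Perseus list. The 2 antibodies thus placed it at opposite ends of their overexpressed lists. It holds no consensus, and its best word, CCAAGGTTA, differs by 1 base. The site of NR4A1, a nuclear receptor induced by ACTH, ranked 3172 of 4393 and 3465 of 6616, then 3345 of 11910 with Millipore only.

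Of 13 other known SF-1 targets only INSL3, a testicular hormone gene, had a site, which ranked 2435 and 5861 and was found in neither overexpressed list. Of 15 neuronal genes that REST represses, 2 had a site. CHGB encodes a secretory granule protein, and its site ranked 1769 and 3974 without a consensus. L1CAM encodes a neural adhesion molecule, and its site, 620 bp from the start of TMEM187, ranked 1582 and 6119. Neither was found again. Across the 13 listed genes, 3 sites were in all 4 lists, those of CYP11A1, POR and NR0B2.

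Peaks next to long runs of unknown bases in the assembly were counted apart. Within 1 Mb of a run of at least 1 Mb lay 13 sites (2.55%, 1.5 to 4.31), against 23 other basal Millipore peaks (0.592%) and 0.819% over all, a difference of 1.96 points (0.863 to 3.73). Among Perseus peaks the order was opposite, with 2.17% of the member peaks and 4.39% of the others. Without all such peaks, 497 sites remained, and they exceeded the others by 37.7 points in the overexpressed Millipore list, by 49.2 points in the overexpressed Perseus list and by 49.1 points for the consensus.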

How the data were processed

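ChIP-seq peak lists were used for 4 groups, 1 list per group. Per the methods, the authors used ELAND v2 to align reads on hg19, and SeqPeak of CisGenome v2 to call peaks from triplicates against input. The labels give 1 list for replicates 1 to 3, read here as combined libraries. The submitters' processing notes also name CASAVA 1.6. The deposited lists hold coordinates, a rank and a score. The deposited score was 1000 in all peaks and was not used further. The quantity behind the rank and the read depth are not given in the sources used here. Input reads were not used here.

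An overlap of 1 bp or more made a peak shared. Sequence was read from GRCh37 (hg19) in windows of 200 bp around peak centres, with windows 5000 bp to each side as background, and genes were those of GENCODE version 44 on GRCh37. CTCF was searched as an exact pattern and NRSF/REST with up to 4 mismatches at 19 fixed positions. A gene's TSS was its outermost start. Long assembly gaps were runs of unknown bases of at least 1000000 bp. Shares carry Wilson intervals, differences Newcombe intervals, pooled differences Mantel-Haenszel intervals and differences of mean GC content normal intervals, all at 95%. Scripts were tested on simulated data. Sites were named by a rule: the 5 with the best worse basal rank, the 5 of all 4 lists with the best worst rank among those over 1 Mb from a long assembly gap, the 3 best of each other class, and the nearest site to each listed gene. Named sites without their own description are within the counts, and some are not reported here. The sites, gene lists and motifs were chosen with earlier results of these data known. Software was Python 3.11.15, numpy 2.4.6, pandas 2.3.3 and matplotlib 3.10.9.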

Additional observations from a re-analysis of the deposited data

How the results depend on the processing

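Over 9 results and 47 alternatives, 42 values kept their direction and side of 0, or for counts lay within 1.5 times. The difference in consensus between sites found again and sites found in neither overexpressed list turned from -1.44 points to 0.0276 without peaks near long gaps and to 0.229 over whole peaks, and its interval took in 0 throughout. With the better-ranked 50% of each list, the sites numbered 229 in place of 510 and the genes within 100 kb 632 in place of 1245. Within 10 kb, 204 genes had a site. An overlap of at least 50% of the narrower peak left 444 sites. Pooling over GC quartiles lowered the difference near a TSS from 6.35 to 3.58 points, and counting the starts of all transcripts raised it to 11.7. GC quartiles, and rank quartiles for TSS and gaps, were added after seeing the data. No paired analysis was possible because each group has 1 list for its libraries together, and for the same reason no replicate could be left out. Depth is unknown, so a site missing from an overexpressed list was not called there, which does not show that SF-1 was absent.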

Other observations

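The sites were spread unevenly over the chromosomes. Chromosome 19 held 38 sites (7.45%), or 0.643 per megabase, against 3.79% of the other basal Millipore peaks, a difference of 3.67 points (1.59 to 6.33). Chromosome 9, which carries NR5A1, held 53 sites (10.4%), or 0.375 per megabase, against 7.11% of the others, a difference of 3.28 points (0.776 to 6.33). The mean over chromosomes 1 to 22 and X was 0.167 per megabase. Chromosomes 17, 21 and 22 were also higher, by 2.37 (0.606 to 4.76), 1.53 (0.363 to 3.37) and 1.45 points (0.218 to 3.33). Chromosomes 4 and 6 were lower, with differences of -2.08 (-3.44 to -0.12) and -2.32 points (-3.82 to -0.22). On the remaining autosomes and X the interval took in 0. These intervals are not adjusted for the number of chromosomes looked at. Chromosome Y was left out of this comparison. Sites there, among them one at chrY:59003301-59003449, near a long assembly gap and without a consensus, are therefore not in these counts. Within 10 kb of another site lay 25 of the 510.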
